A study of Mus musculus with 8 samples.

Results

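The genes described here carry bile acids across the hepatocyte membrane or sense them, and they were chosen by name. They are the receptor gene Nr1h4 (FXR), its target Nr0b2 (SHP), the uptake genes Slc10a1 (NTCP), Slco1a1 (OATP1A1), Slco1a4 (OATP1A4) and Slco1b2 (OATP1B2), the canalicular export genes Abcb11 (BSEP) and Abcc2 (MRP2), and the basolateral export genes Abcc3 (MRP3) and Abcc4 (MRP4). All 10 were found by symbol among the 52636 genes counted, and all 10 passed the filter on low counts. Liver RNA came from 8 male wild-type C57BL/6J mice, 4 per group, with 1 library per mouse. The AAV8-AGXT group carried human AGXT and the AAV8-GFP control group carried GFP, in both cases delivered by adeno-associated virus 8 and driven by the hepatocyte-specific TBG promoter. Both groups received the virus at 7 weeks of age and then ate the MASH diet, rich in fat, fructose and cholesterol, for 24 weeks from 8 weeks of age. Each mouse is named here by its animal number, 303, 311, 314 and 315 (AAV8-GFP) or 308, 309, 316 and 319 (AAV8-AGXT).

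Hepatocytes synthesize bile acids from cholesterol, secrete them into the canaliculus through BSEP, and recover most of them from portal blood through NTCP and the OATP carriers. MRP2 sends conjugates into bile, whereas MRP3 and MRP4 return them to blood when the canalicular route is overloaded. FXR binds bile acids, pairs with RXRα on inverted repeats of the nuclear receptor half-site, and induces BSEP and SHP. SHP in turn represses bile acid synthesis and is known to dampen NTCP.

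Genes received from 17095433 to 28780140 read pairs in a library, and every gene of the axis had between 36 and 21812 pairs in each mouse, the lowest counts being those of Abcc4. The labelled tissue matched its markers, since Alb reached at least 25931 normalized CPM, a count scaled to a common library size, in every mouse. Agxt (mouse), which checks the human transgene only as far as its reads align to the mouse gene, was at 148 to 179.9 CPM in AAV8-GFP and 201 to 405 CPM in AAV8-AGXT livers. Of the summed cell type markers given here, those of cholangiocytes did not overlap between the groups and the others did. The 14 hepatocyte markers summed to between 74344 and 86782 CPM in AAV8-GFP and between 86437 and 117565 CPM in AAV8-AGXT mice, and the 16 cholangiocyte markers to between 629 and 1120 CPM and between 322 and 584 CPM. The 17 macrophage markers ranged from 1118 to 1841 CPM and from 456 to 1632 CPM, and the 13 stellate cell and fibroblast markers from 625 to 1082 CPM and from 299 to 709.6 CPM. In edgeR 1 hepatocyte marker was called higher, and 1 cholangiocyte, 1 macrophage and 2 stellate cell and fibroblast markers lower, and no marker of these lists was at 0 in all mice. The part of these shifts in the results was not tested beyond the hepatocyte marker scaling reported with single genes. In bulk liver, fewer cells of a type and less RNA per cell cannot be told apart.

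Of the 32851 promoter windows in the RefSeq table (GRCm38.p6, 250 bases before to 50 after a start), 11 belonged to 9 of the genes, and Abcc3 was not in the table. The FXR element searched was the inverted repeat IR-1, AGGTCANTGACCT, with at most 2 mismatches, which 1.14% of all windows held. Abcb11 and Slco1b2 held it, each with 1 mismatch, a match that 0.0822% of all windows reached. The direct repeat DR-1, AGGTCANAGGTCA, read on both strands, was found with at most 2 mismatches in 3.86% of windows, and among these genes in Nr1h4 with 2 and in Slco1a1 with 1. The only Nr1h4 window (chr10:89506609-89506908, minus strand) lies inside the gene, whose 5′ end is at 89533585. The sequence before that end was not searched. In Slco1b2 and Abcb11 the best DR-1 alignment lay on the same bases as the IR-1 match, with 4 and 3 mismatches. An exact half-site AGGTCA on either strand, which IR-1 and DR-1 contain, was present in 6 of the 9 genes and in 16.3% of windows. The 150 bases before the annotated start are shown for the 3 genes with a 1-mismatch repeat, because 2 of them rose and the other, Abcb11, did not pass, and for Slc10a1, which rose and held neither repeat in this window. Capitals mark the IR-1 match in Slco1b2 and Abcb11 and the DR-1 match, read on the reverse strand, in Slco1a1. The stretches are chr6:141629368-141629517 (plus strand) for Slco1b2, chr2:69342617-69342766 (minus strand) for Abcb11, chr6:141946963-141947112 (minus strand) for Slco1a1 and chr12:80968706-80968855 (minus strand) for Slc10a1, each written 5′ to 3′ towards the start.
Slco1b2: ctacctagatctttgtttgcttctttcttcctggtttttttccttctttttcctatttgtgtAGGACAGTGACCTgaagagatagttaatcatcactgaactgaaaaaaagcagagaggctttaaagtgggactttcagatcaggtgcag
Abcb11: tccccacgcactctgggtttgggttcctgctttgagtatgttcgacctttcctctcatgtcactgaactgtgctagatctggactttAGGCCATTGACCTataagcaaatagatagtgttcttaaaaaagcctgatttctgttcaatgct
Slco1a1: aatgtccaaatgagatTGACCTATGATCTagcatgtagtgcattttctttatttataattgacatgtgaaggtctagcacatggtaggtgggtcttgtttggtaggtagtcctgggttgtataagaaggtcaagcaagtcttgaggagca
Slc10a1: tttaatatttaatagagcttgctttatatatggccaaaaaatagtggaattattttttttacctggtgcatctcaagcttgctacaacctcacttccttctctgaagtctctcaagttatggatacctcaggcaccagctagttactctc
The matches lie 88 to 76 bases before the start in Slco1b2, 63 to 51 bases before it in Abcb11 and 134 to 122 bases before it in Slco1a1. A match is a description of letters and does not show binding.

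The first question was whether overexpression of AGXT in hepatocytes changed the expression of this axis in MASH livers. Expression of 3 of the 4 uptake genes rose in AAV8-AGXT mice, namely Slc10a1, Slco1b2 and Slco1a1, and no export or receptor gene passed the test. This was 3 of 10 genes higher, beside 2.45% of all 15248 tested genes, and 0 of 10 lower, beside 1.90% of all tested genes (adjusted p under 0.05 in edgeR's quasi-likelihood test). At an unadjusted p under 0.05 there were 5 of the 10, all higher, beside 13.5% of tested genes that were higher and 12.6% that were lower at that threshold. The DESeq2 Wald test called 4 higher and 0 lower, beside 7.08% and 6.93% of the genes it tested. Normalized levels did not overlap between the groups for 4 genes, all higher in AAV8-AGXT, beside 8.93% of tested genes that were higher without overlap and 7.63% that were lower. The median log2 fold change was 0.36 over the 10 genes and 0.018 over all tested genes. With libraries scaled to 14 hepatocyte markers in place of the TMM factors, the median of all tested genes moved to -0.29 and none of the 10 genes passed. Without AAV8-GFP mouse 311, AAV8-GFP mouse 314 or AAV8-AGXT mouse 319 none passed either, and without AAV8-GFP mouse 303 only Slc10a1 did. Calls over all tested genes, 374 higher and 290 lower with all mice, also fell in these fits. They were 2 and 0 without mouse 311, 11 and 4 without 314, 12 and 2 without 319, and 114 and 79 without 303.

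**Figure D1:**
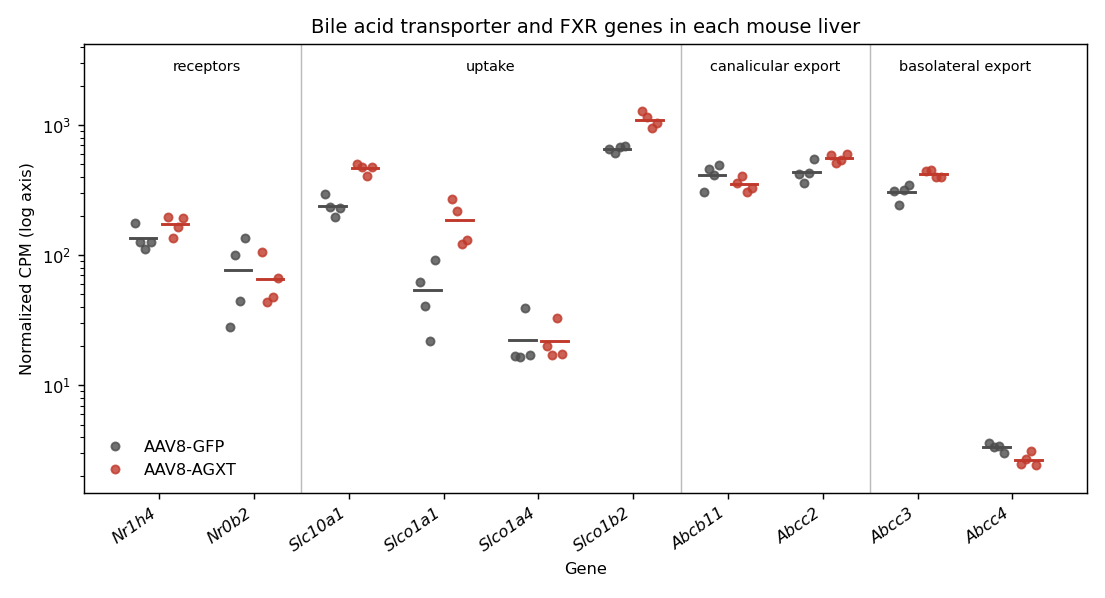
Normalized CPM (log axis) of the 10 genes, with 1 point per mouse and a line at the group mean, AAV8-GFP in grey and AAV8-AGXT in red (n = 4 each). The red points lie above all grey points for Slc10a1, Slco1a1, Slco1b2 and Abcc3, and the groups overlap for the other genes.

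Slc10a1 (ENSMUSG00000021135, chromosome 12, 80953183 to 80968705) encodes NTCP, the sodium-dependent carrier that takes up conjugated bile acids. It was at 296, 234, 196 and 233 CPM in AAV8-GFP mice 303, 311, 314 and 315, and at 501, 479, 408 and 481 CPM in AAV8-AGXT mice 308, 309, 316 and 319. Every AAV8-AGXT liver was above every AAV8-GFP liver, the nearest being AAV8-GFP mouse 303 at 296 CPM and AAV8-AGXT mouse 316 at 408 CPM. The mean rose from 239 ± 41.5 to 467 ± 41.0 CPM (SD, n = 4 each), which is 1.95-fold (log2 fold change 0.96 with a standard error of 0.15, adjusted p = 0.0246 from edgeR). Its log2 fold change stayed between 0.85 and 1.08 with each mouse left out in turn, although only 5 of these 8 fits passed. Scaled to hepatocyte markers it was 0.65 (adjusted p = 0.0661 from edgeR), which is 0.93 above the median of all tested genes under that scaling.

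Slco1b2 (ENSMUSG00000030236, chromosome 6, 141629518 to 141686646) encodes OATP1B2, the hepatocyte OATP of the 1B family. In the AAV8-GFP mice, in the order above, it was at 652, 616, 673 and 689 CPM, and in the AAV8-AGXT mice at 1288, 1154, 945 and 1029 CPM. The AAV8-GFP livers lay close together and all below the AAV8-AGXT livers, of which mouse 308 was highest. That rank depends on the scaling, as mouse 308 had the lowest TMM factor. Before scaling it had 18654 pairs on Slco1b2 of 17459686 on genes, and mouse 309 had 19200 of 17095433. The mean rose from 657 ± 31.6 to 1104 ± 149.7 CPM (SD, n = 4 each), which is 1.68-fold (log2 fold change 0.75 with a standard error of 0.13, adjusted p = 0.0304 from edgeR). It passed in 4 of the 8 fits that left out a mouse. Scaled to hepatocyte markers its log2 fold change was 0.44 (adjusted p = 0.112 from edgeR), 0.73 above the median of all genes.

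Slco1a1 (ENSMUSG00000041698, chromosome 6, 141907282 to 141946962) encodes OATP1A1, a carrier that is more abundant in male than in female mouse liver. It was at 61.8, 40.6, 21.9 and 91.6 CPM in the AAV8-GFP mice and at 269.7, 220.2, 121 and 132 CPM in the AAV8-AGXT mice. The groups did not overlap, but both were widely spread, with mouse 314 lowest and mouse 308 highest, 12.3-fold apart. The AAV8-GFP mean was 54.0 ± 29.9 CPM and the AAV8-AGXT mean 186 ± 71.3 CPM (SD, n = 4 each). It rose 3.44-fold, the most of the 10 genes (log2 fold change 1.78 with a standard error of 0.41, adjusted p = 0.0456 from edgeR). The call was close to the threshold. It was lost with robust estimation in edgeR (adjusted p = 0.0579) and with hepatocyte marker scaling (adjusted p = 0.052), and it passed in 1 of the 8 fits that left out a mouse, that without mouse 315, with log2 fold changes from 1.5 to 2.17.

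Slco1a4 (ENSMUSG00000030237, chromosome 6, 141805440 to 141856199) encodes OATP1A4, which drugs that activate CAR or PXR are known to induce. It was at 16.8, 16.6, 39.2 and 17.2 CPM in the AAV8-GFP mice and at 20.2, 17.1, 33.0 and 17.3 CPM in the AAV8-AGXT mice. In each group 1 mouse stood above the others, 314 and 316, and the remaining 6 lay between 16.6 and 20.2 CPM. The log2 fold change was -0.033 (95% interval -0.75 to 0.68, adjusted p = 0.962 from edgeR), an interval that leaves room for a change in either direction. Slco1a1 and Slco1a4 are close paralogs on neighbouring stretches of the chromosome, and pairs that aligned to more than 1 place did not enter the counts, so their separate values are uncertain.

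**Figure D2:**
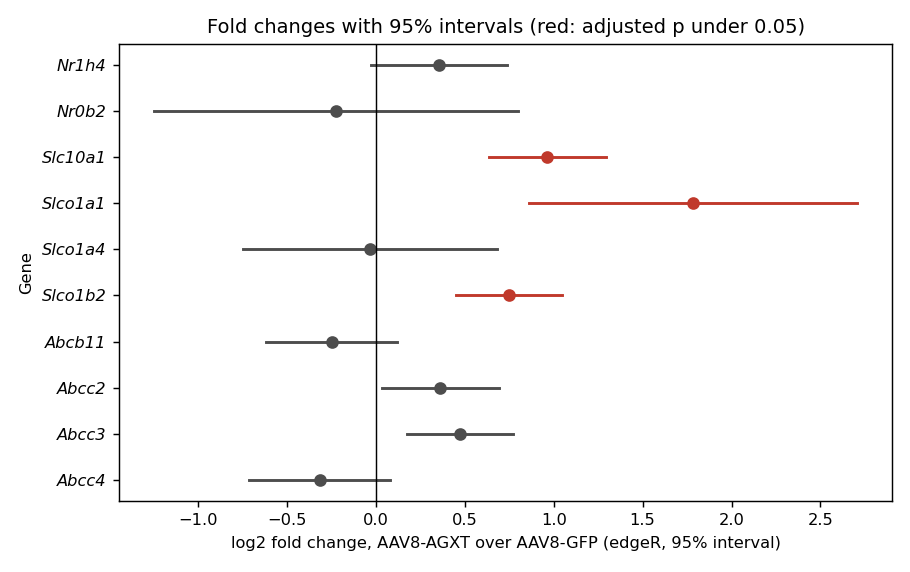
Log2 fold change of AAV8-AGXT over AAV8-GFP (x axis) with its 95% interval from edgeR for each of the 10 genes (n = 4 mice per group), in red where the adjusted p was under 0.05. The intervals of Slc10a1, Slco1a1 and Slco1b2 lie well above 0, those of Abcc2 and Abcc3 lie above 0 without passing adjustment over all genes, and the other 5 cross 0.

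Of the canalicular genes, Abcb11 (ENSMUSG00000027048, chromosome 2, 69238282 to 69342616) encodes BSEP, the pump that limits bile acid secretion. It was at 307, 457, 412 and 491 CPM in the AAV8-GFP mice and at 359, 407, 307 and 330.1 CPM in the AAV8-AGXT mice. The groups overlapped, with the lowest values of both groups at the same level. Its log2 fold change was -0.25 (95% interval -0.62 to 0.12, adjusted p = 0.367 from edgeR). Abcb11 shares 136 exonic bases with Gm13613 and 19 with Gm13614, both on the opposite strand, and as the strand setting of the counting is not stated its value is uncertain to that extent. Abcc2 (ENSMUSG00000025194, chromosome 19, 43782192 to 43840740), the MRP2 gene, was at 419, 359, 425 and 546 CPM in the AAV8-GFP mice and at 588, 511, 543 and 605 CPM in the AAV8-AGXT mice. Only AAV8-GFP mouse 315 reached into the AAV8-AGXT range. The log2 fold change was 0.36 (95% interval 0.033 to 0.69, adjusted p = 0.157 from edgeR).

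Of the basolateral export genes, Abcc3 (ENSMUSG00000020865, chromosome 11, 94343295 to 94392997) encodes MRP3, which returns conjugates to blood and is also made by cholangiocytes. It was at 310.2, 245, 318 and 348 CPM in the AAV8-GFP mice and at 443, 453, 401 and 398 CPM in the AAV8-AGXT mice. Every AAV8-AGXT liver was above every AAV8-GFP liver, at 424 ± 28.3 against 305 ± 43.4 CPM (SD, n = 4 each). With a log2 fold change of 0.47 (95% interval 0.18 to 0.77) it did not pass (adjusted p = 0.0714 from edgeR), whereas the DESeq2 Wald test called it (adjusted p = 0.00648). Scaled to hepatocyte markers its log2 fold change was 0.18 (adjusted p = 0.489 from edgeR). Abcc4 (ENSMUSG00000032849, chromosome 14, 118482692 to 118706219), the MRP4 gene, was the scarcest member. It was at 3.63, 3.34, 3.41 and 3.04 CPM in the AAV8-GFP mice and at 2.49, 2.70, 3.13 and 2.45 CPM in the AAV8-AGXT mice. Only AAV8-AGXT mouse 316 reached above the lowest AAV8-GFP mouse, and the log2 fold change of -0.32 did not pass (95% interval -0.71 to 0.081, adjusted p = 0.289 from edgeR).

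Nr1h4 (ENSMUSG00000047638, chromosome 10, 89454234 to 89533585) encodes FXR. It was at 176, 127, 111 and 127 CPM in the AAV8-GFP mice and at 198, 136, 164 and 193 CPM in the AAV8-AGXT mice. AAV8-GFP mouse 303 lay within the AAV8-AGXT range and the other three AAV8-GFP mice lay below it. The log2 fold change was 0.35 (95% interval -0.031 to 0.74, adjusted p = 0.226 from edgeR), and under hepatocyte marker scaling it was 0.015. Nr0b2 (ENSMUSG00000037583, chromosome 4, 133553376 to 133556536) encodes SHP, the repressor that FXR induces. It was at 28.1, 100.1, 44.6 and 135 CPM in the AAV8-GFP mice and at 106, 43.8, 47.5 and 66.4 CPM in the AAV8-AGXT mice. Nr0b2 had the widest relative spread within a group of the 10 genes, with a coefficient of variation of 64.2% among AAV8-GFP and 43.0% among AAV8-AGXT livers. The log2 fold change of -0.22 had a 95% interval from -1.25 to 0.80 (adjusted p = 0.794 from edgeR), the widest interval of the 10 genes, and without AAV8-GFP mouse 315 the sign turned to 0.19.

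Cyp7a1, the rate-limiting enzyme of bile acid synthesis and a gene that SHP represses, also varied widely between mice. It was at 41.2, 17.02, 19.4 and 4.10 CPM in the AAV8-GFP mice and at 18.4, 20.4, 36.6 and 83.0 CPM in the AAV8-AGXT mice. In AAV8-GFP mice the highest Cyp7a1 was in mouse 303, which had the lowest Nr0b2, and the lowest Cyp7a1 was in mouse 315, which had the highest Nr0b2. In AAV8-AGXT mice the lowest Cyp7a1 was in mouse 308, which had the highest Nr0b2, but the highest Cyp7a1 was in mouse 319, whose Nr0b2 was second highest. The part of SHP in the Cyp7a1 values was not tested. For Cyp7a1 the log2 fold change of 0.96 had a standard error of 0.63 (adjusted p = 0.364 from edgeR).

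Levels of different genes were compared per kilobase of exon, as RPKM, that is normalized CPM divided by the union of exons in GENCODE M21. In AAV8-GFP livers Slco1b2 was highest at 133 ± 6.42 RPKM, followed by Slc10a1 at 109 ± 18.9, Abcb11 at 80.9 ± 15.6, Nr0b2 at 67.9 ± 43.6, Nr1h4 at 58.8 ± 12.3, Abcc3 at 53.6 ± 7.62 and Abcc2 at 51.2 ± 9.19 RPKM (SD, n = 4). Neighbours in this order overlapped between mice, so their order is not resolved. A clear step separated Abcc2 from Slco1a1 at 10.2 ± 5.67 RPKM, and another separated Slco1a4 at 3.499 ± 1.74 from Abcc4 at 0.525 ± 0.038 RPKM (SD, n = 4), whereas Slco1a1 and Slco1a4 overlapped. In AAV8-AGXT livers Slco1b2 at 224 ± 30.4 and Slc10a1 at 212 ± 18.6 RPKM (SD, n = 4) stood clear of all other members, the next being Nr1h4 at 75.0 ± 12.5 RPKM. There Slco1a1, at 35.2 ± 13.5 RPKM, no longer overlapped Slco1a4 at 3.41 ± 1.17 RPKM and overlapped Nr0b2 at 58.2 ± 25.01 RPKM.

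Added by role, the 4 uptake genes came to between 236 and 281 RPKM in AAV8-GFP and between 405 and 543 RPKM in AAV8-AGXT livers. The 2 canalicular genes came to between 109 and 159 RPKM and between 123 and 139 RPKM, the AAV8-AGXT range lying inside that of AAV8-GFP. The 2 basolateral genes, nearly all of it Abcc3, came to between 43.5 and 61.6 RPKM and between 70.2 and 79.9 RPKM.

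Because any scaling between libraries cancels in the ratio of 2 genes of 1 liver, each uptake gene was also set against each export gene, per kilobase, within each mouse. This comparison was chosen after the values were seen. Of 16 pairs, 10 had ratios in the AAV8-AGXT livers that all exceeded those in the AAV8-GFP livers, none had the opposite, and 6 overlapped. All 10 hold Slc10a1, Slco1a1 or Slco1b2, whose own levels did not overlap either. The share of such pairs among other genes was not computed, so the count cannot be set against a background. The 10 pairs each had p = 0.0286 in a two-sided exact permutation test over 70 arrangements, the smallest that 4 mice against 4 allow, and an adjusted p of 0.0457 over the 16 pairs. With all of them at the smallest p, the adjusted value only follows from how many pairs did not overlap. The pairs share genes and were compared with the levels known, so these p-values are descriptive and add no separate support. The ratio of Slc10a1 to Abcb11 was 2.26, 1.20, 1.11 and 1.11 in the AAV8-GFP mice and 3.27, 2.75, 3.11 and 3.41 in the AAV8-AGXT mice. AAV8-GFP mouse 303 was the nearest to the AAV8-AGXT livers. The ratio of Slco1b2 to Abcb11 was 2.22, 1.41, 1.71 and 1.46 against 3.74, 2.96, 3.22 and 3.26, again without overlap. Slc10a1 and Slco1a1 were higher against all 4 export genes, and Slco1b2 against Abcb11 and Abcc4. Against Abcc2 and Abcc3 the ratios of Slco1b2 overlapped (exact permutation adjusted p = 0.0762 for both), with log2 differences of 0.36 and 0.26. The ratios of Slco1a4 to the 4 export genes overlapped, with adjusted p from 0.352 to 0.514 in the same exact permutation test.

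**Figure D3:**
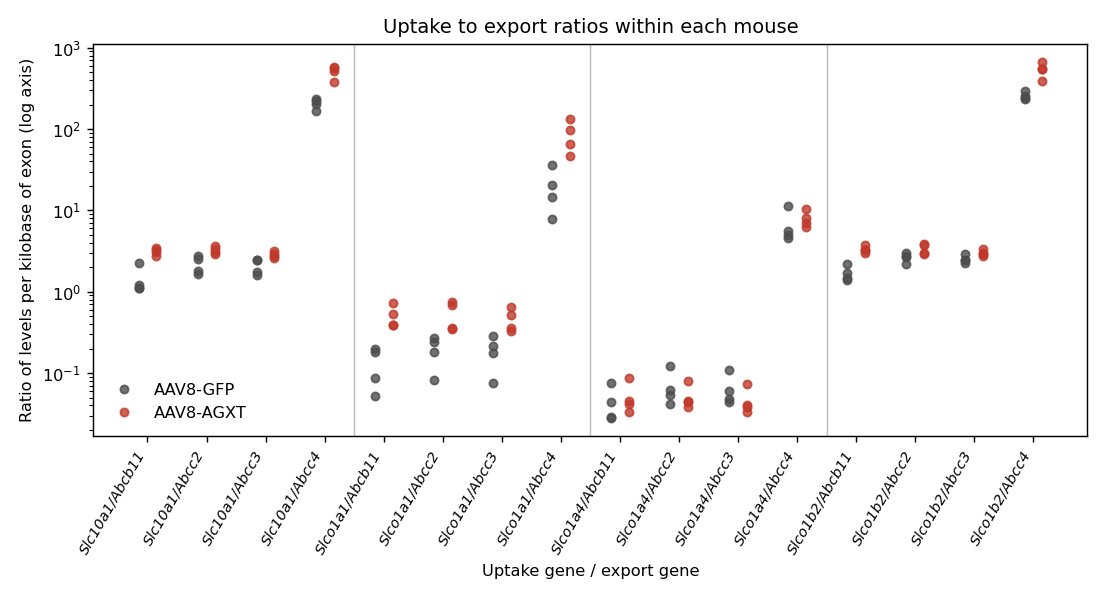
Ratio of each uptake gene to each export gene within a mouse (log axis, levels per kilobase of exon), with 1 point per mouse, in grey for AAV8-GFP and red for AAV8-AGXT (n = 4 each). For Slc10a1 and Slco1a1 the red points lie above the grey ones for all 4 export genes, and for Slco1a4 the groups overlap throughout.

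Other transporters of bile acids and biliary lipids were read from a list of 15 genes, of which 14 were tested. Slco2b1 rose, Slc51b fell and the other 12 did not pass. Slc51b, the beta subunit of the basolateral exporter OST and a well known FXR target that cholangiocytes also make, was at 1.52, 2.82, 1.57 and 1.85 CPM in the AAV8-GFP mice and at 0.276, 0.0601, 0.462 and 0.755 CPM in the AAV8-AGXT mice. All AAV8-AGXT livers were lower (log2 fold change -2.25 with a standard error of 0.50, adjusted p = 0.0413 from edgeR). It was scarce, with 1 read pair in mouse 309, and it shares 91 exonic bases with Rasl12 on the opposite strand. The summed cholangiocyte markers were also lower in all AAV8-AGXT livers. The largest parts of that sum were Spp1 (mean 484 CPM in AAV8-GFP, 157 CPM in AAV8-AGXT) and Tm4sf4 (239 and 151 CPM). Tm4sf4 was the only marker called (log2 fold change -0.66, adjusted p = 0.0426 from edgeR). Of the 16 markers, 14 had a negative and 2 a positive fold change. Singly, Krt19 (3.62 to 12.6 CPM in AAV8-GFP, 2.21 to 7.09 CPM in AAV8-AGXT) and Epcam (6.97 to 25.3 and 2.69 to 12.6 CPM) overlapped between the groups. The part of cholangiocytes in the Slc51b values was not tested. Slc51a, its partner subunit, had 0 read pairs in every mouse, which allows up to between 0.0918 and 0.207 CPM (3 counts per library, counting error only). Slc51a shares 567 exonic bases with Pcyt1a on the opposite strand, so pairs assigned to neither gene would not be seen in this bound. Slco2b1, another uptake carrier, averaged 121 ± 16.5 CPM with AAV8-GFP and 175 ± 13.1 CPM with AAV8-AGXT (SD, n = 4 each). It rose by 0.53 on the log2 scale (adjusted p = 0.0446 from edgeR), and it shares 471 and 78 exonic bases with the antisense genes Gm15635 and Gm34280. DESeq2 called 3 of this list higher and 1 lower. For this list and those below, the shares over all tested genes were 2.45% higher and 1.90% lower in edgeR. In DESeq2 they were 7.08% and 6.93%.

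Among 18 partners and co-regulators of FXR, 1 rose and none fell. The riser was Klb, the co-receptor through which intestinal FGF15 restrains bile acid synthesis, at 8.95 ± 1.75 CPM with AAV8-GFP and 16.3 ± 3.62 CPM with AAV8-AGXT (SD, n = 4 each), with a log2 fold change of 0.87 (adjusted p = 0.0444 from edgeR). DESeq2 called 5 of the 18 higher and 0 lower. Rxra, the partner with which FXR binds DNA, was at 352 ± 49.4 and 561 ± 106 CPM (SD, n = 4 each) and narrowly missed the threshold (log2 fold change 0.67, adjusted p = 0.0502 from edgeR). Fgfr4, the receptor that Klb serves, had a log2 fold change of -0.016 (adjusted p = 0.940 from edgeR). Of 19 tested genes listed here as FXR targets, 3 rose and 1 fell (4 and 1 in DESeq2), with a median log2 fold change of 0.20. Those that rose were Slc27a5, the bile acid CoA ligase (log2 fold change 0.77, adjusted p = 0.0344 from edgeR), Ppara (0.89, adjusted p = 0.0376) and Ugt1a1, which conjugates bilirubin and shares exons with its Ugt1a neighbours (0.97, adjusted p = 0.0413). The gene that fell was Slc51b. Abcb11 and Nr0b2, both well known FXR targets, did not pass.

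In 18 tested genes of bile acid synthesis and conjugation, 2 rose and none fell (9 and 0 in DESeq2), with a median log2 fold change of 0.46. They were Slc27a5 and Cyp7b1, the oxysterol hydroxylase of the alternative pathway, which was at 90.5 ± 43.8 CPM with AAV8-GFP and 296 ± 82.8 CPM with AAV8-AGXT (SD, n = 4 each), with a log2 fold change of 1.71 (adjusted p = 0.0425 from edgeR). None of 15 tested genes of canalicular trafficking and scaffolding passed in either direction in edgeR or in DESeq2. At an unadjusted p under 0.05 in edgeR 0 were higher and 3 lower, beside 13.5% and 12.6% of all tested genes. The median log2 fold change of the 15 was 0.011. In 8 tested CAR and PXR targets 1 rose and none fell (4 and 1 in DESeq2), the riser being Por, the electron donor of microsomal P450s (log2 fold change 1.32, adjusted p = 0.0246 from edgeR). Cyp3a11, a target of PXR, was highest among AAV8-GFP mice in mouse 314, at 3040.5 CPM, which also had the highest Slco1a4. In AAV8-AGXT mice the highest Cyp3a11 was in mouse 309, at 2433 CPM, and mouse 316, with the highest Slco1a4 of that group, was at 2354 CPM. The part of CAR or PXR activity in the Slco1a4 values was not tested.

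The 3 other tested genes whose log2 CPM followed Slc10a1 most closely over the 8 mice, among 10437 genes with a mean of at least 5 CPM, were Mpv17l (Pearson r = 0.990), Cyp2c54 (r = 0.989) and Polg (r = 0.983). All 3 were called higher in AAV8-AGXT mice, so that the difference between the groups is part of the likeness. For Nr1h4 they were Dtnb (r = 0.992), Cda (r = 0.979) and Nat8 (r = 0.977), none of which was called. These values describe 8 livers that share libraries and depth, and were picked as the largest of many.

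**Figure D4:**
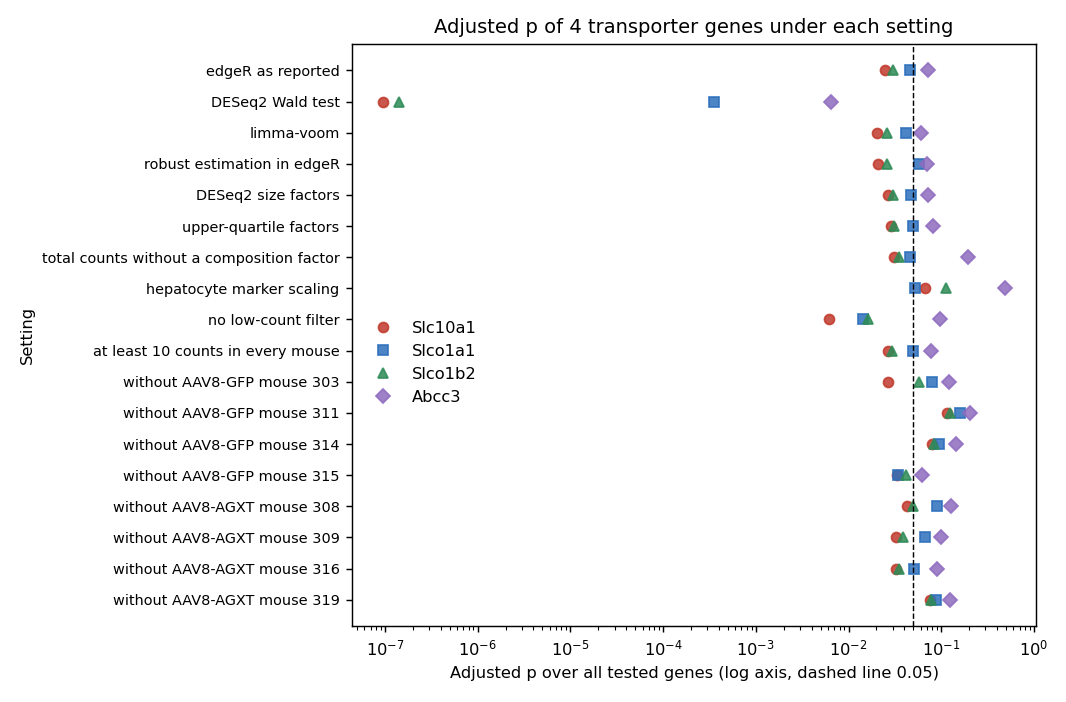
Adjusted p over all tested genes (log axis, dashed line at 0.05) of Slc10a1, Slco1a1, Slco1b2 and Abcc3 under each way of testing, scaling or filtering and with each mouse left out (y axis). Slc10a1 and Slco1b2 lie left of the line except with hepatocyte marker scaling and without mouse 311, 314 or 319, and for Slco1b2 also without mouse 303, and the points of Slco1a1 crowd the line.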

How the data were processed

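The deposited values are raw counts of read pairs per gene, 1 file per mouse. According to the methods and labels, the authors checked reads with FastQC 0.11.8, used Trimmomatic 0.35 for trimming, aligned to GRCm38 in HISAT2 2.1.0.13 and counted with HTSeq. The strand option is not given in the sources used here. The 5 tally rows, 30.9% to 43.7% of tallied pairs, were left out. Symbols, positions and exon lengths came from GENCODE M21 (GRCm38), which matched 52489 of 52636 genes.

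In R 4.3.3, genes kept by filterByExpr (15248) were normalized by TMM and tested with edgeR 4.0.16 (quasi-likelihood, treatment as the only term), with Benjamini-Hochberg adjustment over all of them and a threshold of 0.05. The TMM factors lay between 1.02 and 1.14 in AAV8-GFP and between 0.830 and 1.001 in AAV8-AGXT mice, lowest in mouse 308. Standard errors and intervals come from the unshrunken coefficient. Log2 CPM used a prior count of 2. The fit was tested on simulated data. Alternatives were DESeq2 1.42.0, limma 3.58.1 (voom), robust estimation, 4 other scalings, 2 other filters and each mouse left out. The genes and lists were chosen with earlier results of these data known, so no test over a list is given. All 10 genes are named, and from each list at most 4 called genes with the smallest p, or else the 1 or 2 with the smallest p. Genes named beyond this (Rxra, Fgfr4, Cyp7a1, Cyp3a11, Slc51a, Krt19, Epcam, Spp1, Mup20 and C9) were chosen after their values were seen.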

Additional observations from a re-analysis of the deposited data

Results flagged for a closer look

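Slco1a4 in AAV8-GFP mouse 314 stood far from the other three mice of its group, at 39.2 CPM against 16.6 to 17.2 CPM. The gap took 0.974 of the group's whole range, above Dixon's 95% critical value of 0.829 for 4 samples. It was the 1 case among 20 tests of the 10 genes in both groups, and chance alone gives about 1 in 20.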

How the results depend on the processing

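No paired analysis was possible because the groups share no animal numbers. The 374 higher and 290 lower genes became 1077 and 1054 with DESeq2 and 144 and 857 with total counts, 54 and 319 with hepatocyte marker scaling, and 254 and 298 with upper-quartile factors. With each mouse left out the higher genes ranged from 2 to 379 and the lower ones from 0 to 325. The 3 higher genes of the axis became 0 with hepatocyte marker scaling and ranged from 0 to 3 with a mouse left out, and 0 were lower in every fit. Total counts and hepatocyte scaling moved the median log2 fold change of all genes to -0.22 and -0.29. The sign turned for Slco1a4 with limma-voom (0.039), by mean log2 CPM (0.016) and with mice left out (from -0.30 to 0.36), and for Nr0b2 with mice left out (from -0.56 to 0.19). Of 180 values of the 10 genes under alternatives, 154 kept their direction and side of the threshold. Another 18 lost a call, 2 gained one and 6 turned sign, the cause of which was not tested. These values include an exact permutation test of mean log2 CPM for each gene, whose p was not adjusted. Both gained calls were of Abcc3, with DESeq2 and with that permutation test (p = 0.0286). The IR-1 count of 2 genes was the same with at most 1 mismatch and rose to 4 with at most 3. DR-1 went from 2 to 1 and to 6. Slc51b and Abcc4 are limited by depth.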

Other observations

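Slco1a1 belongs to the genes that male mouse liver expresses more than female liver. A list of 18 other such genes, all tested, had 7 higher and none lower after AAV8-AGXT (10 and 0 in DESeq2). Their median log2 fold change was 1.12. It was positive for 16 and negative for 2, Mup20 (-0.63, adjusted p = 0.176 from edgeR) and C9 (-0.0094). Hsd3b5, a steroid dehydrogenase typical of male liver, was at 2.34, 0.826, 0.185 and 5.91 CPM in AAV8-GFP mice 303, 311, 314 and 315 and at 46.7, 31.5, 16.7 and 27.2 CPM in AAV8-AGXT mice 308, 309, 316 and 319. The lowest Hsd3b5 and the lowest Slco1a1 of each group were in the same mice, 314 and 316. Moxd1 was at most 0.117 CPM in AAV8-GFP, with 0 to 3 read pairs per mouse, and between 1.03 and 9.44 CPM in AAV8-AGXT mice. Nudt7 and Ces4a rose with log2 fold changes of 1.504 and 1.99 (adjusted p = 0.0348 and 0.0403 from edgeR). Of 7 tested female-predominant genes 1 rose and 1 fell. All mice were male by the methods.

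NRF2, the oxidative stress factor, is known to induce Abcc2, Abcc3 and Abcc4 in mouse liver. Of 13 tested NRF2 targets none rose, 3 fell and 10 were not called (0 higher and 4 lower in DESeq2). Those that fell were Gstm3 (log2 fold change -2.14, adjusted p = 0.0363 from edgeR), Osgin1 (-0.84, adjusted p = 0.0425) and Gstm1 (-0.74, adjusted p = 0.0493). Abcc2, Abcc3 and Abcc4 had log2 fold changes of 0.36, 0.47 and -0.32 that did not pass. The part of NRF2 in the values of these export genes was not tested.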
